A study of Mus musculus with 70 samples.

Results

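Chromatin interactions that had no protein-coding promoter at either end made up 68142 of the 248620 distinct interactions (27.4%) called from H3K4me3 PLAC-seq in 12 mouse tissue-stages. An interaction was a pair of 10-kb bins on the 19 autosomes of mm10, 20 to 1000 kb apart, in the pooled and downsampled call set of a tissue-stage. A pair was a member when neither bin held a transcription start site (TSS) of any transcript of a protein-coding gene in GENCODE. The members were divided, in this order, into 18161 with a TSS of a long noncoding RNA (lncRNA) or small RNA gene at an end (26.7% of members), 31775 with an end directly next to a promoter bin (46.6%), and 18206 with neither (26.7%). The other 180478 interactions, with a protein-coding promoter at 1 or both ends, are called promoter interactions.

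PLAC-seq is proximity ligation followed by chromatin immunoprecipitation, here of H3K4me3, a histone mark of active promoters. Tissue came from C57BL/6N mice with no genetic change or treatment. At embryonic day (E) 12.5 the tissues were liver (LV), limb (LM), the craniofacial prominence (CF) and 4 neural tissues, which were neural tube (NT), hindbrain (HB), midbrain (MB) and forebrain (FB). FB was also taken on each of the 4 following days, up to E16.5, and at birth (P0), and every tissue-stage had 2 biological replicate libraries. CTCF ChIP-seq peaks were available for the same 12 tissue-stages. Each tissue is a mixture of cell types, so that fewer cells with an interaction and a weaker interaction in each cell cannot be told apart. The pooled sets held 21945 interactions in LV and 51264 to 79677 in the other 11 tissue-stages. The 24 single libraries, which were not downsampled, held 11396 to 63868 interactions each, and 1849 to 12894 members (median 6161).

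A promoter assay also reaches elements that are not protein-coding promoters, because noncoding genes have promoters that carry H3K4me3 and because an active promoter can spread the mark into the next bin. Primary microRNA transcripts can start at such noncoding promoters, and the mature microRNA pairs with its targets mainly through the seed, its bases 2 to 8. The annotated start of a microRNA gene, used here, is that of its short precursor hairpin. The primary transcript can start in another bin. CTCF is a zinc finger protein that halts loop-extruding cohesin, and the bases of many loops carry CTCF motifs that point towards each other, the convergent arrangement.

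Some microRNA genes were among the noncoding genes with the most members. Mature sequences of several microRNA genes with members are shown because their seeds define the families named below. The miR-124 genes are given by name only. Of the 30 listed microRNA genes with members, 25 had a mature sequence in RefSeq (GRCm38.p6). Sequences run 5′ to 3′ with the seed in capitals. The miR-9, miR-125b and let-7 families each have more than 1 locus here, and miR-100 is shown because it shares the seed ACCCGUA with miR-99a.
miR-9-5p, from Mir9-2 at chr13:83738821-83738843 (+), also made from Mir9-1 and Mir9-3: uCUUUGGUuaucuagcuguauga
miR-125b-5p, from Mir125b-1 at chr9:41581940-41581961 (+) and Mir125b-2 at chr16:77646279-77646300 (+): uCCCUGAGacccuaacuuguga
miR-99a-5p, from Mir99a at chr16:77598940-77598961 (+): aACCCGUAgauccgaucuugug
miR-100-5p, from Mir100 at chr9:41531437-41531458 (+): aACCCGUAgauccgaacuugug
let-7c-5p, from Mirlet7c-1 at chr16:77599672-77599693 (+): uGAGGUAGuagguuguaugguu
let-7i-5p, from Mirlet7i at chr10:122985698-122985719 (-): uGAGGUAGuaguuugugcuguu
miR-137-3p, from Mir137 at chr3:118433901-118433923 (+): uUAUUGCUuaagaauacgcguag
miR-199a-5p, from Mir199a-2 at chr1:162217844-162217866 (+): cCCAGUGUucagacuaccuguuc
miR-214-3p, from Mir214 at chr1:162223438-162223459 (+): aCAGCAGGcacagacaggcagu

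The CTCF sites at the ends of a strong interaction of each class show the arrangement that the orientation results below count. In each class the interaction shown was called in all 12 tissue-stages, with CTCF motif peaks at both ends and the highest observed/expected ratio (read pairs over those expected by the caller, median over the 12 sets). Each sequence is 49 bases of mm10 on the strand of the motif, 5′ to 3′, with the 19 bases of the motif match in capitals. The motif was built from 5000 FB E12.5 peaks, and its consensus was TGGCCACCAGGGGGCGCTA.
Noncoding class, left end, bin of C130071C03Rik, chr13:83725152-83725200 (+): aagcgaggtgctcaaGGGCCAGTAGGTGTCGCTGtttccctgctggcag
Noncoding class, right end, chr13:84347998-84348046 (-): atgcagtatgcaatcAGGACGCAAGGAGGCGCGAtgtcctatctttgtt
Class next to a promoter, left end, chr3:34647869-34647917 (+): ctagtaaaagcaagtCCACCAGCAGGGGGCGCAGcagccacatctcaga
Class next to a promoter, right end, chr3:35482499-35482547 (-): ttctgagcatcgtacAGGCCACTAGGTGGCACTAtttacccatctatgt
Neither class, left end, chr9:41228855-41228903 (+): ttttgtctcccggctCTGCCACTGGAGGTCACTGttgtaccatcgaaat
Neither class, right end, chr9:41953732-41953780 (-): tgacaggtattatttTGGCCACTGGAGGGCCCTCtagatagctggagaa
The first pair spanned 620 kb with a ratio of 14.0, the second 840 kb with 15.9 and the third 730 kb with 23.96. By this choice the left motif lay on the plus strand and the right motif on the minus strand in all 3 pairs, facing each other.

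The share of interactions without a protein-coding promoter was 23.9% ± 2.52 (SD, n = 12 tissue-stages) in the pooled sets. It was lowest in NT (19.9%) and LM (20.1%), and highest in MB (27.0%) and in FB at E13.5 (27.0%). LV held 4876 members and the other tissue-stages 11282 to 17258. In single libraries the share ran from 13.1% to 26.4% (median 21.8%), and the replicates of a tissue-stage differed by 0.218 to 5.41 percentage points (median 2.49, the most in FB at E16.5). The LM libraries were the lowest of the 24, with 14.8% and 13.1%.

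Within the members, an end with a noncoding TSS was present in 29.9% ± 1.39 per tissue-stage (27.6% in LV to 32.0% in FB at E12.5). An end next to a promoter bin, without a noncoding TSS, accounted for 47.7% ± 2.83, and LV stood highest with 55.02% against 44.4% to 49.6% elsewhere. Neither applied to 22.4% ± 2.37, with 17.4% in LV and 19.3% to 24.97% elsewhere. The 3 classes kept the same order in all 12 sets.

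**Figure D1:**
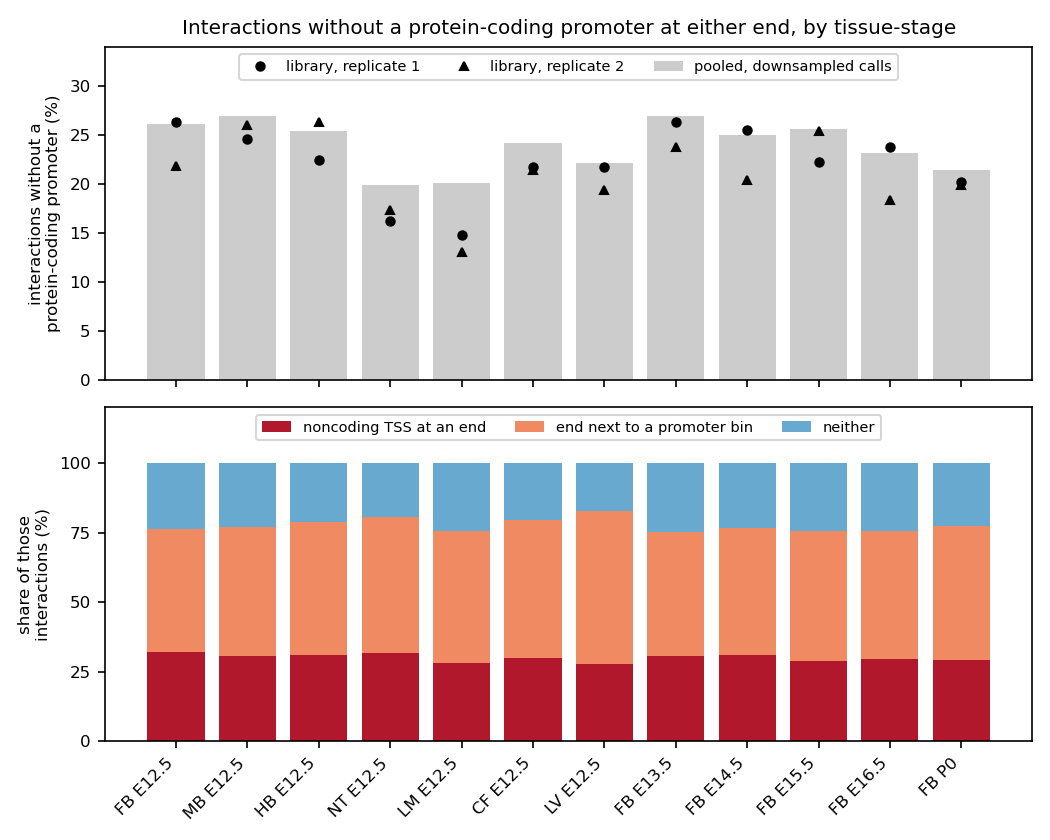
The upper panel plots the share of interactions without a protein-coding promoter (%) for the 12 tissue-stages, with bars for the pooled calls and symbols for the replicate libraries, and the lower panel divides those interactions into the 3 classes (%). The bars lie between 19.9% and 27.0%, the LM libraries are the lowest symbols, and the class next to a promoter bin is the largest in every tissue-stage.

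Bins with a noncoding TSS were over-represented at the ends of members relative to all bins without a protein-coding TSS. The caller required an H3K4me3 peak in at least 1 bin of a pair, and this background was not limited to bins with such a peak. The comparison therefore cannot tell an excess at member ends from an excess among marked bins in general, which was not tested. They were 10.5% ± 0.624 of the member-end bins per tissue-stage (n = 12), against 5.07% of all 204529 autosomal bins without a protein-coding TSS. Bins next to a promoter bin were 31.8% ± 4.04 of member-end bins against 18.3% of all such bins. Both shares were higher in 12 of 12 tissue-stages (2-sided exact sign-flip permutation test, p = 0.000488, the smallest that 12 pairs allow, Benjamini-Hochberg adjusted p = 0.000868 over 16 tests).

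Over all tissue-stages together, 45084 bins were an end of at least 1 member, of which 3786 held a noncoding TSS, 11578 lay next to a promoter bin without one, and 29720 did neither. A CpG island, here a 500-bp window with at least 55% G+C and a CpG observed/expected ratio of at least 0.65, was present in 4.79% of member-end bins and in 2.64% of all bins without a protein-coding TSS. The share was 12.2% for the noncoding TSS bins, 8.03% for the bins next to a promoter and 2.59% for the rest. The noncoding TSS bins thus carried CpG islands most often and the remaining bins at about the share of all bins. Of the bins next to a promoter bin, 17.5% reached within 1 kb of a protein-coding TSS. Of the noncoding TSS bins, 28.3% also lay next to a promoter bin and 5.57% reached within 1 kb of a protein-coding TSS. The noncoding class came first in the division, so the classes do not separate noncoding starts from sequence next to promoters. RefSeq placed an mRNA start in 2.64% of the member-end bins, so that a small part of the members had a coding promoter in another annotation.

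Members tended to run from a busy bin to a quiet bin. The end with more members of its own in the tissue-stage had a median of 10.25 members and the other end 2 (means of the 12 medians, with 5.54% ties left out). The busy end held a noncoding TSS in 22.8% ± 1.74 of members and the quiet end in 9.68% ± 0.511. CpG islands lay in 36.6% ± 4.71 of the busy ends and 5.81% ± 0.818 of the quiet ends, and CTCF motif peaks in 64.2% ± 2.69 and 34.2% ± 2.69. The contrast was present also in the neither class, where 21.7% of busy ends and 4.26% of quiet ends held a CpG island. These shares are a description, since busy and quiet were read from the same calls.

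Members had CTCF at their ends less often than promoter interactions. The study found CTCF sites most enriched at promoter regions, and the member rule removes every bin with a protein-coding TSS. Promoter interactions included pairs with a coding promoter at both ends, and those with a coding promoter at 1 end were not compared separately. How much of the difference follows from the rule was not tested. A bin was counted as bound when it held the midpoint of a CTCF peak with a motif in the same tissue-stage, which at FB E12.5 held for 34.8% of member-end bins and 11.2% of all bins without a protein-coding TSS. CTCF was at both ends of 23.1% ± 2.63 of members (19.7% in FB at E12.5 to 28.1% in LV) and 28.8% ± 3.45 of promoter interactions. It was at neither end of 25.1% ± 2.58 of members (20.8% to 28.3%) and 17.1% ± 3.02 of promoter interactions. At 1 end the shares were 51.7% and 54.1%. All 3 differences had the same sign in 12 of 12 tissue-stages (exact sign-flip permutation test, adjusted p = 0.000868 each). Their size depended on the peaks counted: with CTCF peaks above the median fold enrichment only, the difference at both ends went from -5.64 to -1.67 percentage points and that at neither end from 8.06 to 4.51.

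Where both ends could be oriented, the members were more often convergent. Orientation was read for interactions whose ends each held motifs of a single direction, 977 members in LV and 1841 to 3097 in the other tissue-stages. The motifs were convergent in 56.3% ± 2.97 of them (53.3% in FB at P0 to 64.8% in LV), against 49.1% ± 3.34 of promoter interactions. The difference was 7.25 percentage points, from 4.53 to 9.73, and was positive in 12 of 12 tissue-stages (exact sign-flip permutation test, adjusted p = 0.000868). Divergent motifs made up 4.99% of members and 8.58% of promoter interactions. A CTCF motif peak was thus less frequent at member ends than at promoter interaction ends, but more often convergent where present at both.

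**Figure D2:**
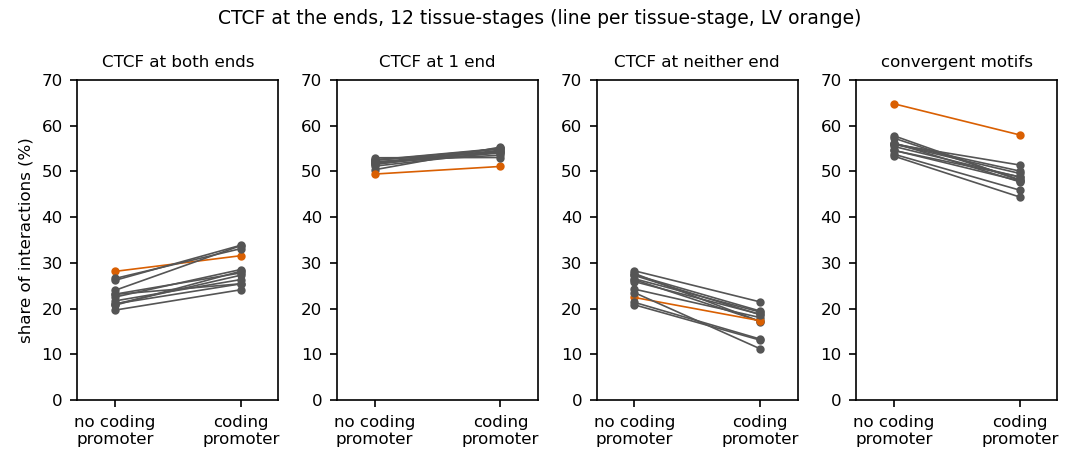
Each panel plots the share of interactions (%) without and with a protein-coding promoter, with a line for each of the 12 tissue-stages and LV in orange, for CTCF at both ends, at 1 end, at neither end and for convergent motifs. The lines fall from left to right for convergent motifs (56.3% to 49.1% on average) and for neither end (25.1% to 17.1%), and rise for both ends (23.1% to 28.8%).

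The 3 classes differed little in CTCF. It was at both ends in 22.5% of the noncoding class, 23.2% of the class next to a promoter and 24.1% of the neither class. The noncoding class was 1.62 percentage points below the neither class, lower in 11 of 12 tissue-stages (exact sign-flip permutation test, adjusted p = 0.00994), whereas the class next to a promoter minus the neither class (-0.955) and the noncoding class minus the class next to a promoter (-0.662) did not pass (adjusted p = 0.116 for both in the same exact test). CTCF was at neither end in 25.3%, 25.7% and 23.6% of the 3 classes. There the noncoding class was 1.66 and the class next to a promoter 2.15 percentage points above the neither class, each in 10 of 12 tissue-stages (exact sign-flip permutation test, adjusted p = 0.0192 for both), and the noncoding class minus the class next to a promoter was -0.484 (adjusted p = 0.191). These small differences did not keep their direction when bins within 2 bins of a promoter counted as next to it, where the noncoding class was 1.34 percentage points above the neither class for CTCF at both ends. Convergent motifs made up 55.1% of the noncoding class, 56.1% of the class next to a promoter and 58.5% of the neither class.

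Members were longer than promoter interactions and had a higher observed/expected ratio. Their median distance was 312.5 kb on average over the tissue-stages (170 kb in LV to 350 kb in FB at E16.5) against 274 kb, and higher in 11 of 12 (exact sign-flip permutation test, adjusted p = 0.00156). LV was the exception, with 170 kb for members and 180 kb for promoter interactions. By class the mean of the medians was 320 kb for the noncoding class, 295 kb for the class next to a promoter and 329 kb for the neither class. The median log2 observed/expected ratio was 1.92 ± 0.07 for members and 1.76 ± 0.07 for promoter interactions, higher in 12 of 12 (adjusted p = 0.000868 in the same test). Both differences kept their sign but became smaller among calls with a ratio of at least 3, where the difference in distance was 13.3 kb in place of 38.3 kb and that in log2 ratio 0.07 in place of 0.16. With 1 start per coding gene the difference in distance was 24.2 kb. The median read pairs behind a call were fewer for members, 18.3 against 23.7. Both sets hold only pairs that passed the FDR and ratio cuts of the caller. Whether the lower counts of members go with their higher ratio among such calls was not tested.

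Members were found in both replicates less often. The members called in both libraries of a tissue-stage were 50.5% ± 3.61 of the mean number per library, against 56.2% ± 2.69 for promoter interactions, lower in 12 of 12 tissue-stages (exact sign-flip permutation test, adjusted p = 0.000868). The share ran from 42.9% in LM to 54.4% in HB. Because 6 of the 12 tissue-stages are FB, the tests were repeated over the 7 E12.5 tissues, where adjusted p was 0.0227 for the shares of end bins, CTCF at both, 1 or neither end, convergence, ratio, replication and the sharing described next, and 0.0417 for distance.

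Members were shared between tissue-stages less than promoter interactions. Of the distinct members, 53.6% were called in a single tissue-stage, against 46.3% of promoter interactions, and 11.5% against 17.0% in 6 or more. Within a tissue-stage 22.9% ± 7.42 of members and 15.7% ± 4.08 of promoter interactions were called nowhere else, and the member share was higher in 12 of 12 (exact sign-flip permutation test, adjusted p = 0.000868). LV had the highest share of members called nowhere else (42.2%), then LM (32.1%) and CF (26.0%), and FB at E14.5 the lowest (16.9%). LV was also the smallest set, and the FB stages had 5 neighbouring stages of the same tissue. A pair that was not called could not be told from a pair that the caller did not test.

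The classes differed in sharing. A single tissue-stage accounted for 48.0% of the noncoding class, 52.5% of the class next to a promoter and 61.3% of the neither class. In 6 or more tissue-stages stood 14.9%, 11.7% and 7.75%. Only 359 members (0.527%) were called in all 12, of which 146 were of the noncoding class, 163 next to a promoter and 50 of neither kind, compared with 2559 promoter interactions (1.42%). Of these 359, CTCF motif peaks lay at both ends in every tissue-stage for 59, 76 and 25.

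**Figure D3:**
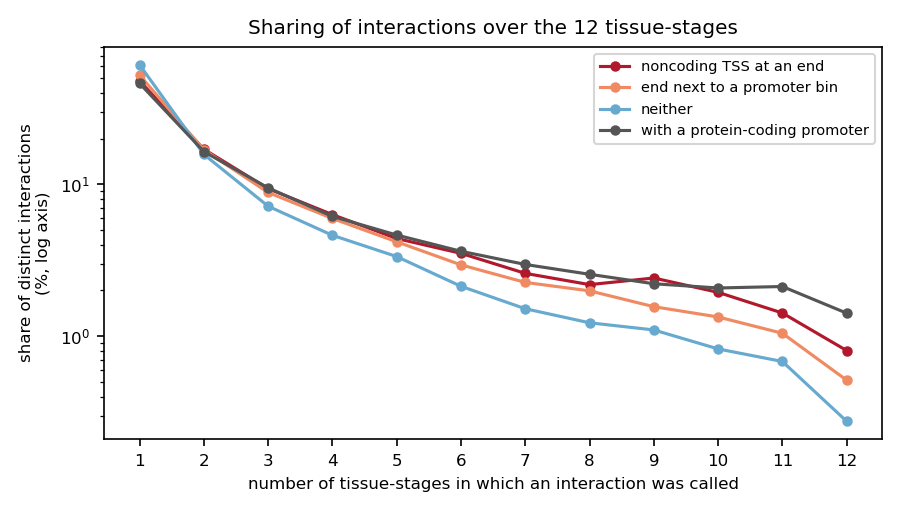
The share of distinct interactions (%, log axis) is plotted against the number of tissue-stages in which they were called, with a line for each class of members and for promoter interactions. The neither class starts highest (61.3% in a single tissue-stage) and ends lowest (0.275% in all 12), and promoter interactions end highest (1.42%).

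Between tissues, no difference in the share of members passed the threshold. The labels were permuted over single libraries, although the 2 libraries of a tissue-stage share their tissue and stage. The LM libraries lay below the 16.3% to 26.4% of the other 12 E12.5 libraries (exact permutation test, p = 0.011, the smallest that 2 against 12 allows, adjusted p = 0.0549 over 10 tests). Neural libraries (FB, MB, HB, NT at E12.5) had 22.7% ± 3.98 (n = 8) and LM, CF and LV libraries 18.7% ± 3.83 (n = 6, exact permutation test, adjusted p = 0.148). Late FB (E16.5 and P0) had 20.6% and early FB (E12.5 and E13.5) 24.6%, with 4 libraries each (exact permutation test, adjusted p = 0.148). The noncoding share of members was 28.2% and 29.4% in the LV libraries and 31.8% to 38.8% in the others, without overlap (exact permutation test, p = 0.011, adjusted p = 0.0549). CF differed from the other E12.5 tissues by 0.701 percentage points in the share of members (adjusted p = 0.945 in the same test).

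Among noncoding RNA classes, processed transcripts were the most often represented at member ends, with 50.6% of their 557 bins without a coding TSS, and snoRNA genes the least, with 20.6% of 896 bins. Of lincRNA bins 40.6% had a member, of antisense bins 40.9% and of microRNA bins 33.3%. Of all 10360 noncoding TSS bins without a coding TSS, 3786 had a member. As a background, 45084 of all 204529 autosomal bins without a coding TSS had a member. The snoRNA bins lay slightly below this share and the other classes named here above it. Members concentrated in few bins. Of the 3786 noncoding TSS bins with any member, 193 had members in all 12 tissue-stages and 195 had a mean of at least 5 per tissue-stage. The number of members of a bin is the number of distinct partners it was called with, and each interaction counts once at each of its ends. A low number in a tissue-stage cannot be told from pairs that the caller did not test there.

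Of the 10 noncoding TSS bins with the most members, 6 lay within 7 kb of a coding TSS and 4 lay far from any. Gm26742, a lncRNA gene whose bin at chr18:54980001-54990000 ends 0.166 kb from the TSS of the zinc finger gene Zfp608, had the most, with 72.25 ± 22.5 members per tissue-stage. It had 10 in LV, 57 in CF and 63 to 100 in the other 10 tissue-stages. Zmiz1os1 (chr14:25460001-25470000, 0.709 kb from Zmiz1) had 40.5 ± 13.2, with 3 in LV and 33 to 53 elsewhere. A830082K12Rik, 0.244 kb from the nuclear receptor gene Nr2f1, had 28.9 ± 14.9, Gm45371, 1.82 kb from Zfp703, 33.8 ± 10.4, and Gm26735, 3.71 kb from the transcription factor gene Sox4, 29.1 ± 12.5. At these 5 bins a coding TSS lay just beyond the bin border, so that an interaction of the bin could not be assigned to the noncoding gene rather than to its neighbour. The snRNA gene Gm25064, 6.98 kb from Skor1, had 31.25 ± 11.5.

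The remaining 4 of the 10 bins were over 70 kb from a coding TSS. The bin of Mir125b-1 (chr9:41580001-41590000, with the lncRNA genes 3110039I08Rik and Gm28119) had 40.6 ± 12.6 members and was 385 kb from the TSS of Sorl1. It had 4 in LV and 32 to 51 in the other 11 tissue-stages. The bin of Mir9-2 and its host lncRNA C130071C03Rik (chr13:83730001-83740000) had 40.25 ± 20.7 and was 77.1 kb from Mef2c, a transcription factor gene of neurons and muscle. It had 37 to 64 members in the neural tissue-stages, 22 in CF, 5 in LM and 2 in LV. The bin of Mir124a-2 (chr3:17790001-17800000, 148 kb from Cypt12) had 36.7 ± 22.8, with 38 to 66 in the neural tissue-stages, 4 in CF, 1 in LM and 0 in LV. The lncRNA gene 8430419K02Rik, 132 kb from the homeobox gene Meis1, had 27.2 ± 14.6, with 55 in HB, 52 in NT, 37 in CF and 5 to 26 elsewhere. Mir9-2 and Mir124a-2 were thus high in neural tissue-stages, whereas Mir125b-1 was high in all but LV.

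At 4 of the 10 bins the partners lay all or nearly all on 1 side. All 78 distinct partners of the Mir9-2 bin were at higher coordinates (median 605 kb away) and all 80 of the Mir124a-2 bin at lower coordinates (median 585 kb). All 69 of the Gm45371 bin and 82 of 87 of the Zmiz1os1 bin were at lower coordinates. The other bins reached both ways. The Mir125b-1 bin had 30 partners at lower and 37 at higher coordinates (median 270 kb), 8430419K02Rik 41 and 54, and Gm26735 59 and 27. Gm26742 had 161 distinct partners, 86 lower and 75 higher, of which 1 was called in all 12 tissue-stages and 20 in a single tissue-stage. CTCF motif peaks were present at FB E12.5 in 5.13% of the partner bins of Mir9-2, 5.0% of those of Mir124a-2 and 20.9% of those of Mir125b-1, compared with 11.2% of all bins without a coding TSS.

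Bins with no TSS of either kind in or next to them reached similar numbers to the noncoding TSS bins after Gm26742. The highest, chr9:41950001-41960000, 14.6 kb from the TSS of Sorl1, had 47.2 ± 12.1 members, with 11 in LV and 43 to 59 in the other tissue-stages, and CTCF in all 12. The fifth, chr6:51170001-51180000, 253 kb from Nfe2l3, had 24.1 ± 9.88, with CTCF in all 12 and a CpG island. It had 0 in FB at P0, 9 in LV and 23 to 36 in the other 10 tissue-stages. In single libraries it had 0 and 0 in FB at P0, 0 and 1 in LV and 6 to 22 in the other 20. A further bin, chr9:41220001-41230000, 58.3 kb from Ubash3b, held no TSS but lay next to a bin with a TSS of the noncoding gene 1700063D05Rik, and was added after its values were seen. It had 34.1 ± 11.4 members, CTCF in all 12 tissue-stages and a CpG island. The most CpG-dense 200 bases are shown for the chr6 bin and the chr9 bin at 41220001 only, which hold a CpG island but no annotated start. H3K4me3 peaks commonly lie on such sequence. Each CG is in capitals (mm10, plus strand). The chr6 window held 20 CpG with 58% G+C and the chr9 window 13 CpG with 62.5% G+C. The bins at chr9:41950001, chr13:84340001, chr5:111430001 and chr4:124670001 held no CpG island. Their densest windows, not shown, had 15, 13, 13 and 14 CpG, so the chr9 window shown was no denser than these.
chr6:51178596-51178795 (+): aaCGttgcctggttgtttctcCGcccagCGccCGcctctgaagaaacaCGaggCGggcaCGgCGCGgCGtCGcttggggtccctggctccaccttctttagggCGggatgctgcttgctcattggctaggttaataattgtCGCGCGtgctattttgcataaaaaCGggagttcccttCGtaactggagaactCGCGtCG
chr9:41229001-41229200 (+): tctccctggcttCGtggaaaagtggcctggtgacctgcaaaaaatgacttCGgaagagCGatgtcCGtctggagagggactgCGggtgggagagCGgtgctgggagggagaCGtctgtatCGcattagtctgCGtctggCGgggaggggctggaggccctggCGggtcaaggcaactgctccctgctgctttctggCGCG
The chr9 bins at 41950001 and 41220001 and the Mir125b-1 bin between them were joined to each other. The pair without a TSS, 730 kb apart, had a median ratio of 23.96 and was called in all 12 tissue-stages. The Mir125b-1 bin met the right bin over 370 kb with a ratio of 16.7 in 12 and the left bin over 360 kb with 8.50 in 11.

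The remaining 3 of the 5 bins differed in tissue distribution. The bin chr13:84340001-84350000 (31.8 ± 16.1 members, CTCF in all 12) was the partner of the Mir9-2 bin over 610 kb in all 12 tissue-stages, with a ratio of 17.3. It had 34 to 50 members in the neural tissue-stages, 11 in CF, 6 in LM and 2 in LV. The bin chr5:111430001-111440000, 12.6 kb from Mn1, had 26.8 ± 20.0 members and no CTCF motif peak in any tissue-stage. It had 31 in FB at E12.5, 30 in MB, 38 in HB and 34 to 53 in later FB, but 3 in NT, 2 in CF and 0 in LM and LV. The bin chr4:124670001-124680000, 13.2 kb from the neural transcription factor gene Pou3f1, had 24.7 ± 11.7, with 3 in LV and 7 in FB at E14.5.

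**Figure D4:**
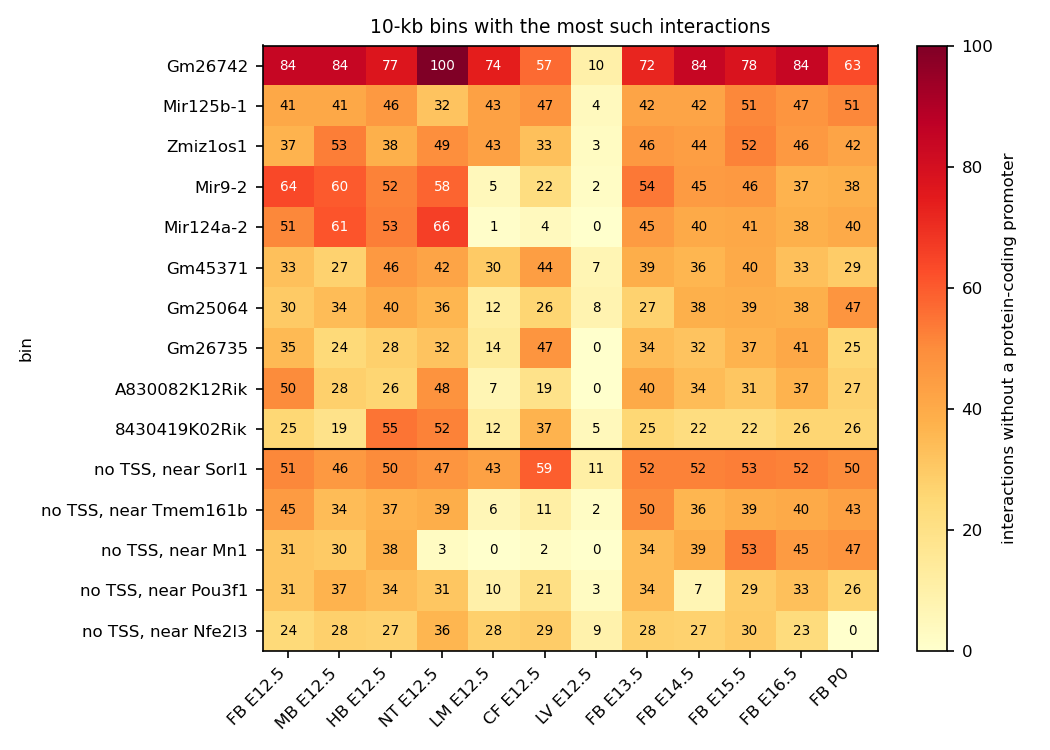
The heat map gives the number of interactions without a protein-coding promoter for the 10 noncoding TSS bins (above the line) and the 5 bins without a TSS in or next to them (below it) with the highest means, in the 12 tissue-stages. The LV column is the lightest, with 0 to 11, and the bins of Mir124a-2, Mir9-2 and chr5:111430001-111440000 are light in LM as well (0 to 5).

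Of 53 listed developmental microRNA genes, 30 had members, 16 had a start only in bins that also hold a coding TSS, and 7 had none. Of all 1116 bins with a microRNA gene start and no coding TSS, 33.3% had a member, and the mean was 0.445 members per bin. After Mir125b-1, Mir9-2 and Mir124a-2, the highest means were those of Mir124a-1 (15.9), Mirlet7i (12.1), Mir137 (10.75) and Mir125b-2 (9.5). These numbers belong to the bin of the hairpin, and promoters of the primary transcripts in other bins are not counted. The hairpin bins of a family differed widely. Mir9-2 had 40.25, Mir9-3 6.08 and Mir9-1 1.33. Mir124a-2 had 36.7, Mir124a-1 15.9 and Mir124a-3 5.75. Mir100, of the same chr9 cluster as Mir125b-1, had 1.0 in its own bin. The 7 listed microRNA genes without members included the muscle genes Mir133a-1, Mir133a-2, Mir133b and Mir206.

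Of 23 listed neural lncRNA genes, 8 had a start only in bins with a coding TSS and 2 were not annotated on an autosome. Of the rest, 13 had members and 0 had none. As a background for this list and those that follow, 40.6% of all lincRNA bins without a coding TSS had a member. The share was 40.9% for antisense and 50.6% for processed transcript bins. These shares count bins, whereas a listed gene counted with a member in any of its TSS bins. They also leave out bins with a coding TSS, whereas the list totals include genes that start only in such bins. Summed over the TSS bins of a gene, C130071C03Rik had 65.7 (2 bins), Sox2ot, which spans the pluripotency and neural gene Sox2, 43.1, Pantr2, beside the neural gene Pou3f3, 41.3, Dlx6os1 at the Dlx5 and Dlx6 locus 23.4, and Rmst, a neurogenesis lncRNA, 21.2. Of 18 limb, face and mesenchyme genes, 9 had a start only in bins with a coding TSS and 1 was not annotated on an autosome. Of the rest, 7 had members and 1 had none. The highest were Haglr (10.8) and Hotair (6.92) of the Hox clusters and Hand2os1 (6.25), beside the limb and heart gene Hand2. The bin of Haglr lay 2.98 kb from the TSS of Hoxd1 and that of Hotair 3.24 kb from Hoxc12. Sox2ot, Pantr2, Dlx6os1 and Hand2os1 also had a bin next to a promoter bin. Interactions of such bins could not be assigned to the noncoding gene rather than to its neighbour. Hand2os1 had 30 in LM, 13 in CF and 0 to 7 elsewhere, and Dlx6os1 36 in CF, 15 in LM, 1 in NT and 0 in LV.

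Of 11 imprinted genes, 2 had a start only in bins with a coding TSS and 1 was not annotated on an autosome. Of the rest, 7 had members and 1 had none, with Meg3 (4.67), Peg13 (3.42), Kcnq1ot1 (3.17), Mirg (2.5) and H19 (1.67) the highest. Of 19 widely expressed genes, 8 had a start only in bins with a coding TSS and 1 was not annotated on an autosome. Of the rest, 10 had members and 0 had none. They ran from Dleu2 (40.5), the host gene of miR-15a and miR-16-1, through Malat1 (5.0), Snhg8 (4.25), Snhg17 (3.92) and Neat1 (3.58) downwards. A bin of Dleu2 lay 2.52 kb from the coding TSS of Kcnrg. Malat1 was among the steadiest, with 4 to 7 in all 12 tissue-stages. Of 12 blood and liver genes, 4 had a start only in bins with a coding TSS and 2 were not annotated on an autosome. Of the rest, 1 had no members and 5 had members. These were Lncpint (9.92), Mir142 and its host Mir142hg in the same bin (0.583, with 4 in LV), Mir122 (0.083) and Mir155hg (0.083). The hairpin bin of Mir122, the main hepatocyte microRNA, had a single member, in LV.

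The number of members per bin was compared between tissues in the single libraries, scaled to the median total of members, with limma on log2(scaled number + 1). A log2 difference on this scale understates low numbers, and where a group is at 0 it depends on the added 1 and is no fold. Neighbouring bins and the ends of 1 interaction are not independent. The 2 libraries of a tissue-stage were fitted as separate samples with no term for tissue or stage. The adjusted p-values and counts therefore do not measure the spread between the tissues or stages of a group. Between the 8 neural and the 6 LM, CF and LV libraries at E12.5, 282 of 1691 bins (16.7%) were higher in the neural libraries and 98 (5.8%) lower (adjusted p under 0.05, Benjamini-Hochberg). Among noncoding TSS bins, 61 of 306 were higher and 25 lower. With both LV libraries left out, an alternative chosen after seeing the data, 302 bins were higher and 213 lower.

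Among noncoding TSS bins, those at the Mir124a-2 and Mir124a-1 loci had the largest increases in the neural libraries. The Mir124a-2 bin had a lowest, median and highest number of 24, 34 and 51 in the neural libraries and 0 in all 6 others, a log2 difference of 4.77 (SE 0.238, limma adjusted p = 7.31e-11). The bins of Mir124-2hg next to it (6, 24.5 and 31), Mir124a-1hg (11, 17 and 27) and Mir124a-1 (7, 12 and 23) were also at 0 in all 6 others, with log2 differences of 3.91, 3.78 and 3.35. Gm17750, a lncRNA gene in the interval between the Mir9-2 bin and its strongest partner, had 5, 13.5 and 22 and again 0 in the others (log2 difference 3.23). None of these groups overlapped, and each bin kept its call in all 21 alternatives run for it. A 0 at these bins cannot be told from pairs that the caller did not test in that tissue.

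Bins at mesenchymal genes were lower in the neural libraries. Hand2os1 had 0 to 5 (median 1) in the neural libraries and 2 to 13 (median 6.5) in the others, a log2 difference of -2.20 (SE 0.430, limma adjusted p = 0.0011). Dnm3os, the host gene of Mir199a-2, had 0 to 4 (median 0.5) against 0 to 15 (median 8.5), and Mir214 in the next bin 0 to 3 (median 0) against 0 to 11 (median 8), with log2 differences of -2.17 and -2.16. The groups overlapped because LV was also low. 2810442N19Rik (-2.36) and Mir3058 (-1.86) completed the 5 largest decreases. Without scaling, Dnm3os (adjusted p = 0.0633) and Mir214 (adjusted p = 0.0604) did not pass in limma.

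By list, 12 of the 32 bins of neural lncRNA genes were tested. Of these 12, 0 were lower in the neural libraries and 9 higher, namely those of C130071C03Rik, Mir124a-1hg, Mir9-3hg, Pantr2, Rmst and Sox2ot. The median log2 difference of the 12 tested bins was 2.25, beside 0.10 over all 1691 bins. Of 12 tested bins of developmental microRNA genes, 6 were higher (the 3 Mir124a genes, Mir9-2, Mir9-3 and Mir125b-2) and 2 lower (Mir199a-2 and Mir214). Of 5 tested limb, face and mesenchyme bins, 0 were higher and 3 lower (Dnm3os, Hand2os1 and H19). Of 3 imprinted bins 1 was lower (H19), and of 5 widely expressed bins 0 passed. No blood and liver bin was tested. Mir125b-1 did not pass (log2 difference 0.19, SE 0.583). Bins entered by their mean over all libraries compared, of which 8 were neural, so bins high only in neural libraries could enter. Mir9-2 shared a bin with C130071C03Rik, Mir9-3 with Mir9-3hg and Mir199a-2 with Dnm3os, and H19 stood in 2 lists. These counts, and those by list below, are therefore a description and no test of a list.

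**Figure D5:**
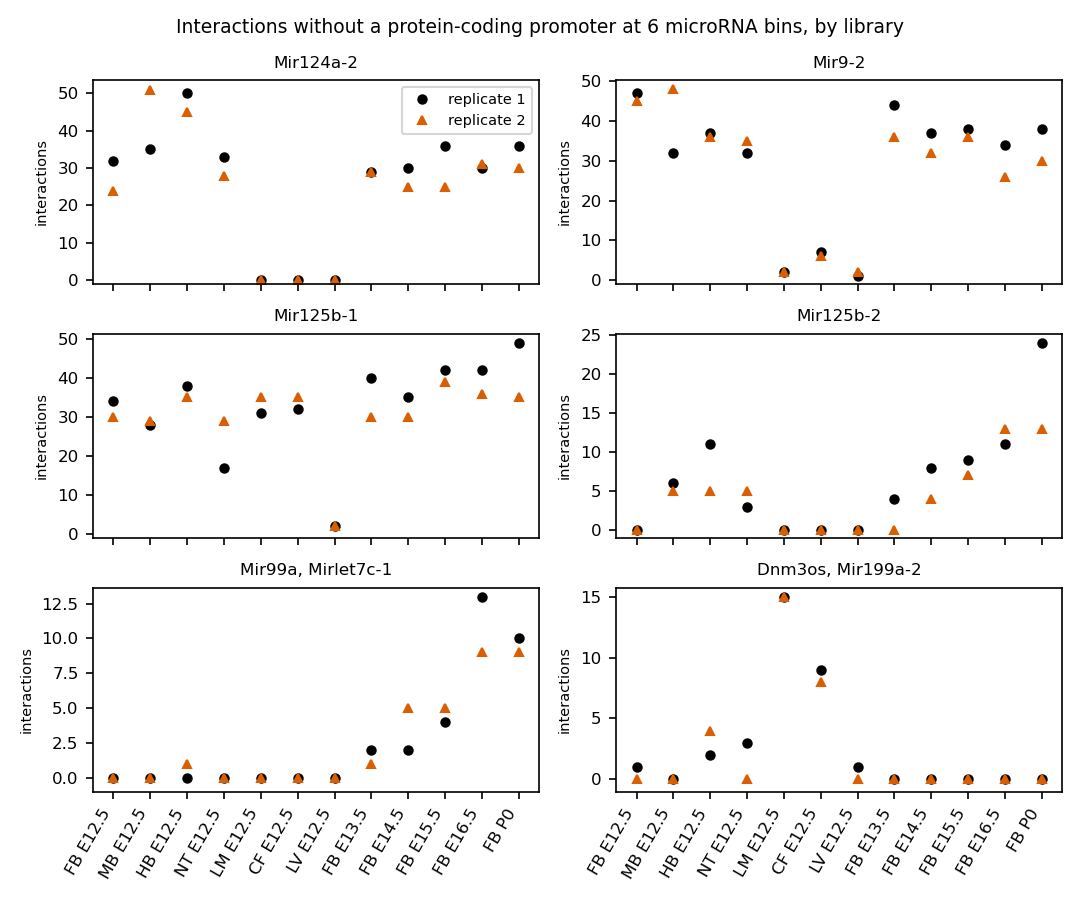
Each panel plots, for 1 microRNA bin, the number of interactions without a protein-coding promoter in each library of the 12 tissue-stages, with replicate 1 in black circles and replicate 2 in orange triangles. Mir124a-2 is at 0 in LM, CF and LV and at 24 or more in neural libraries, Mir199a-2 reaches 15 in both LM libraries, and Mir125b-2 rises from 0 in FB at E12.5 to 24 and 13 at P0.

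LV had the most changed bins against the other E12.5 tissues. Of 1691 bins, 150 (8.87%) were higher and 254 (15%) lower, with a median log2 difference of -0.63 over all bins. Bins entered by their mean over all libraries compared, of which only 2 were LV, so bins high only in LV entered less readily. Without this filter the number of higher bins was many times larger, as given with the alternatives in the last section. The balance of higher and lower bins thus depends on the filter. Among noncoding TSS bins 27 were higher and 54 lower of 306. LV has 2 libraries, with 3276 and 2215 members, and without LV replicate 1 the counts were 41 and 68, and without LV replicate 2 they were 9 and 23.

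The noncoding bins that were higher in LV had small numbers. 5430401H09Rik had 4 and 8 and Gm33370, with Gm8013, 6 and 4 in the LV libraries, and both had 0 in all 12 others (log2 differences 3.22 and 3.01). 4930573C15Rik (2.80), Gm26971 (2.62) and Gm13657 (2.47) followed, with 4 to 8 in LV and 0 to 3 elsewhere. The largest decreases were at Gm26735 near Sox4 (0 and 0 in LV, 3 to 19 elsewhere, median 12.5, log2 difference -3.49), Pantr2 (0 and 0 against 1 to 26, -3.28), Gm35835 (-3.18), Zmiz1os1 (1 and 1 against 11 to 35, -3.05) and Dleu2 (0 and 0 against 2 to 24, -3.001). Dleu2 lost its call without LV replicate 1 (limma adjusted p = 0.13) or LV replicate 2 (adjusted p = 0.165), and Pantr2 without LV replicate 2 (adjusted p = 0.058). By list, 5 of 12 neural lncRNA bins, 3 of 12 microRNA bins (Mir125b-1, Mir9-2 and Mir9-3) and 2 of 5 widely expressed bins, both of Dleu2, were lower, and 0 of these were higher.

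In LM, 72 bins (4.26%) were higher and 61 (3.61%) lower than in the other E12.5 tissues, and 19 and 9 of the 306 noncoding TSS bins. Dnm3os with Mir199a-2 had 15 and 15 in LM, 9 and 8 in CF, 0 to 4 in the neural libraries and 1 and 0 in LV, a log2 difference of 3.68 (SE 0.774, limma adjusted p = 0.0102). Mir214 had 11 and 11 in LM, 8 and 8 in CF and 0 to 3 in the rest (3.59). Dleu2 (21 and 24 in LM, 0 to 11 in the others, 3.21), 2810442N19Rik (3.07) and Hand2os1 (9 and 13 in LM, 0 to 8 in the others, 2.94) followed. LM was highest and CF next at Dnm3os with Mir199a-2 and at Mir214, whereas at 2810442N19Rik CF had more before scaling (14 and 13 against 11 and 8 in LM). The 2810442N19Rik bin lost its call in 10 of 21 alternatives.

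The largest decreases in LM were at AC138457.1 (-2.56), Gm16140 (-2.35), 2210420H20Rik (-1.80), Gm23533 (-1.77) and 2900041M22Rik (-1.67), each at 0 in both LM libraries, and 2900041M22Rik lost its call in 17 of 21 alternatives. None of the 12 neural lncRNA bins passed, with a median log2 difference of -1.74. By list 2 of 5 limb, face and mesenchyme bins, 1 of 5 widely expressed bins (Dleu2) and 2 of 12 microRNA bins were higher. These LM calls rest on its 2 libraries, since without LM replicate 1 the counts were 0 and 0 and without LM replicate 2 they were 4 and 2. With both LV libraries left out, they were 176 and 300.

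CF did not differ from the other E12.5 tissues at any of the 1691 bins at the adjusted threshold, with 0 (0%) higher and 0 (0%) lower by limma, while 108 bins had an unadjusted p under 0.05. Among noncoding TSS bins 23 of 306 had such a p. At the Mir199a-2 and Mir214 bins CF had 8 or 9 members, between LM and the neural libraries.

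Across FB development, 111 of 3447 bins (3.22%) were higher at E16.5 and P0 than at E12.5 and E13.5, and 162 (4.7%) lower, with 4 libraries on each side. Of 511 noncoding TSS bins, 23 were higher and 24 lower. Among noncoding TSS bins, the largest and the third largest increases were in the microRNA cluster of chr16. Mir125b-2 had 0, 0, 4 and 0 in the early libraries and 11, 13, 24 and 13 in the late ones, a log2 difference of 3.16 (SE 0.467, limma adjusted p = 0.00233). The bin of Mir99a and Mirlet7c-1, 50 kb before it and 2.09 kb from the coding TSS of Gm11146, had 0, 0, 2 and 1 early and 13, 9, 10 and 9 late (2.60). Neither pair of groups overlapped. The second largest was at 2310075C17Rik on chr9. 2310075C17Rik, at 0 in all early libraries and 6, 5, 19 and 11 late, had a log2 difference of 3.09, and in FB its first members appeared at E15.5 (7 and 4).

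9530059O14Rik (2.28) and Gm29856 (2.40) completed the 5 largest increases, and Gm29856 lost its call in 11 of 14 alternatives. Mir137 (log2 difference 1.92, SE 0.506, limma adjusted p = 0.0405) and Miat (1.60, SE 0.442, adjusted p = 0.0471) also passed in the libraries, but the pooled sets of matched depth overlapped. Mir137 had 22 and 13 pooled members at E12.5 and E13.5, and 24 and 11 at E16.5 and P0. Miat had 8 and 9, and 15 and 5. Of the other copies of the chr16 microRNAs, Mir125b-1 and Mirlet7i were tested and did not pass. Mirlet7i had a log2 difference of 0.25 (SE 0.277, limma adjusted p = 0.575). Mir125b-1 had 30 to 40 members early and 35 to 49 late before scaling, and a log2 difference of -0.42 after it (limma adjusted p = 0.266). Mir9-2 fell, from 36 to 47 early to 26 to 38 late, with a log2 difference of -1.11 (SE 0.270, limma adjusted p = 0.029).

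The largest decreases in FB were at AC138457.1 (6, 6, 7 and 6 early, 0, 1, 1 and 2 late, log2 difference -2.46, SE 0.356, limma adjusted p = 0.00209) and Gm43782 (5, 4, 8 and 9 early, 1, 0, 2 and 2 late, -2.36). Neither pair of groups overlapped. Sfta3-ps (-1.89), Gm44946 with Gm44948 (-1.77) and Gm26669 (-1.76) followed, and Sfta3-ps lost its call in 8 and Gm26669 in 5 of 14 alternatives. By list, 1 of 14 neural lncRNA bins was higher (Miat) and 1 lower (C130071C03Rik), 3 of 14 microRNA bins were higher and 1 lower, and 1 of 2 limb, face and mesenchyme bins was lower (Haglr, -1.13). None of the tested imprinted (2), widely expressed (7) and blood and liver (2) bins passed. Without FB P0 replicate 1 the counts over all bins were 55 and 77, without P0 replicate 2 they were 55 and 75, and without FB E12.5 replicate 1, E12.5 replicate 2 or E16.5 replicate 2 the lower bins were 67, 63 and 96.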

How the data were processed

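Mouse tissues were assayed by H3K4me3 PLAC-seq (MboI digest) and CTCF ChIP-seq. Per the study's methods and the submitters' processing notes, reads were mapped to mm10 with BWA, uniquely mapped and deduplicated, and the authors called interactions with MAPS at 10-kb resolution (FDR under 1%, observed/expected of at least 2, an H3K4me3 peak in at least 1 bin). The H3K4me3 peaks were not used here. The interaction files deposited by the authors give the read-pair count of each bin pair, its expected signal from the MAPS regression and an FDR (a p-value adjusted for multiple tests), for each library and for replicates pooled and downsampled to a common depth. The CTCF files deposited by the authors give MACS2 peaks with a fold enrichment ratio over input, of which peaks found in both replicates were the main list and the second list an alternative. The LV and FB E14.5 replicates for CTCF were technical, and FB P0 had 1 library. Precision is limited by depth: 6 read pairs was the smallest pooled count.

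TSS bins came from GENCODE M21 on GRCm38 (20807 protein-coding and 15130 noncoding genes on autosomes), a later release than the study's. A 19-bp CTCF motif was learned from peak sequence (score threshold at a probability of 0.0001 per position), and 88.6% to 95% of main-list peaks carried it. Paired comparisons used 2-sided exact sign-flip permutation over the 12 tissue-stages, adjusted over 16 tests. Library comparisons used 2-sided exact permutation of labels, adjusted over 10 tests. Replicate libraries of a tissue-stage counted as separate samples there and in limma. Bin numbers, scaled to the median total of members, were fitted with limma (trend, not robust) on log2(number + 1), for bins with a mean of at least 1, with adjusted p under 0.05 over all bins. Named genes were the 10 noncoding TSS bins and the 5 bins without a TSS in or next to them with the highest mean numbers (1 further bin was added after its values were seen), up to 5 genes per list with members, and up to 5 noncoding TSS bins per direction in each comparison. Other genes were named from list members past the threshold, after their values were seen. The members and lists were chosen with earlier results of these data known. Scripts were tested on simulated data. Python 3.11.15, NumPy 2.4.6, pandas 2.3.3, SciPy 1.17.1, samtools 1.23.1, R 4.3.3 and limma 3.58.1 were used. Alternatives covered the TSS and noncoding gene definitions, the CTCF list and threshold, the ratio cut, single replicates, filter, pseudocount, scaling, a replicate block and leaving out each library. Sex chromosomes were not analysed here.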

Additional observations from a re-analysis of the deposited data

Results flagged for a closer look

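The distance of members relative to promoter interactions differed between LV and the other E12.5 tissues. The median distance of members minus that of promoter interactions was -10 kb in both LV libraries and 0 to 50 kb (mean 25 kb) in the other 12 libraries, without overlap (2-sided exact permutation test, p = 0.011, the smallest that 91 splits allow). LV also had the fewest pooled calls and the shortest interactions, and their part in this difference was not tested.

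In 7 of the 48 groups of 4 to 10 libraries tested among the named bins, the highest library's gap to the next was large relative to the range of the group. The cut is set so that about 1 in 20 groups of continuous, normal values would pass. These are small whole numbers with ties and zeros, so that rate does not apply to them. HB replicate 1 had 23 members at the bin of Mir124a-1, the highest of the neural libraries. FB P0 replicate 1 had 24 at Mir125b-2 among the late FB libraries, and FB E13.5 replicate 1 had 4 there among the early ones, the others being at 0. FB E13.5 replicate 2 had 3 at 9530059O14Rik with the other early libraries at 0, FB E13.5 replicate 1 had 7 at AC138457.1 with the others at 6 (a gap of 1 member), FB E16.5 replicate 1 had 3 at Sfta3-ps with the other late libraries at 0, and FB E12.5 replicate 1 had 18 at Gm26669 among early libraries.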

How the results depend on the processing

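Of the 311 alternative values of the paired and library results, 257 kept their direction and side of the threshold, 15 passed newly, 5 no longer passed, 20 moved and 14 reversed. The comparisons of members with promoter interactions for CTCF, convergence, distance, ratio, sharing and replication, and those of end bins, kept both in every alternative run, though not their size. The difference in distance, 38.3 kb, was 13.3 kb at a ratio of at least 3 and 24.2 kb with 1 start per gene, and that in log2 ratio, 0.16, was 0.07 at a ratio of at least 3. With CTCF peaks above the median fold, the difference at both ends, -5.64 percentage points, was -1.67 and that at neither end, 8.06, was 4.51. The cause of the changes below was not tested unless the definition itself shifts a count.
The share of members, 23.9%, was 28.4% with protein-coding transcripts only, 37.1% with 1 start per coding gene, 19.03% with promoter bins widened by 1 kb, 27.1% at a ratio of at least 3, and 21.1% and 22.2% without replicate 1 or 2. The class shares (noncoding, next to a promoter, neither) moved to 40.4% and 30.5% for the last 2 classes with 1 start per gene, to 31.4%, 42.1% and 26.6% with the 1-kb widening, to 38.1%, 42.2% and 19.7% with pseudogenes added, to 27.8% for the first with lncRNA and microRNA genes only, and to 56.8% and 13.3% for the last 2 within 2 bins. The single-replicate calls gave 33.1% and 33.5% for the first and 18.5% and 18.0% for the last.
The differences in CTCF between classes, in percentage points, were not stable. At both ends, noncoding minus neither was 1.34 within 2 bins and -1.17 with all peaks (no longer passing). Next to a promoter minus neither was 0.107 with the 1-kb widening and 2.84 within 2 bins, and passed at -0.728 (1 start per gene), -1.58 (stronger peaks), -1.70 (coding transcripts), -1.22 (second list), -2.76 and -3.05 (without replicate 1 or 2). Noncoding minus next to a promoter passed at -1.29 (1-kb widening), -1.50 (2 bins), -1.96 and -2.40 (without replicate 1 or 2). At neither end, noncoding minus neither was -0.872 within 2 bins and did not pass at 0.827 (RefSeq starts added, chosen after seeing the data), 0.440 (all peaks) and 0.249 (1-kb widening). Next to a promoter minus neither was -1.33 within 2 bins and did not pass at 3.18 over E12.5 only. Noncoding minus next to a promoter was 0.623 (stronger peaks), 0.161 (pseudogenes), 0.457 (2 bins), 2.67 and 2.27 (without replicate 1 or 2), and passed at -1.15 (RefSeq), -0.903 (coding transcripts), -1.82 (all peaks), -1.59 (ratio of at least 3) and -1.42 (1-kb widening). The difference of LV from the other E12.5 tissues in the share of members, -0.396, was 0.938 (1 start per gene), 1.05 (coding transcripts), 1.26 (ratio of at least 3) and -1.57 and 0.773 (without replicate 1 or 2).
Counts of changed bins, higher and lower, depended on filter and scaling. Without a filter they were 427 and 171 (neural), 2346 higher (LV), 316 and 26 (LM), 208 higher (CF) and 190 higher (FB). Scaled to all interactions, neural lower was 56, LM higher 9 and FB lower 281. Without scaling, they were 695 and 21 (neural), 47 higher (LV), 3 higher (LM) and 32 lower (FB). Counting all interactions of a bin gave 821 and 203 (neural), 605 and 1051 (LV), 20 and 97 (LM) and 546 lower (FB). A pseudocount of 0.5 gave 47 higher in LM. Leaving out both LV libraries gave 213 lower (neural) and 176 and 300 (LM).
Leaving out each library gave 236 to 333 higher and 66 to 114 lower (neural), 9 to 196 and 23 to 379 (LV), 0 to 106 and 0 to 156 (LM), 0 to 1 and 0 (CF) and 55 to 139 and 63 to 164 (FB). The LM lower bins were 127 without LV replicate 1 and 156 without LV replicate 2, and the single CF bin came without NT replicate 2. Of 752 alternative values of named bins, 660 kept their call, 92 lost it and 0 reversed.
Replicate numbers did not pair the samples: same-numbered libraries had correlations of -0.113 to 0.121 in their deviations over 66 pairs, 1 over 0.1. With the replicate block the counts were 265 and 81 (neural), 142 and 228 (LV), 57 and 46 (LM), 0 and 0 (CF) and 91 and 122 (FB). The LV libraries held 15016 and 11396 calls and the LM libraries 12461 and 20775, which limits what can be called in both.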
